A study of Mus musculus with 32 samples.

Results

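The subject of the measurements described here is the second phase of the lipopolysaccharide (LPS) response in bone marrow-derived macrophages (BMDM) without Nur77: what each gene did between 5 h and 18 h of stimulation. It rests on 8 of 32 RNA-seq libraries, 4 from BMDM-Nur77-KO after 5 h of LPS and 4 after 18 h, which were chosen by their genotype and time labels. All 25067 genes of the table were carried through, each by the transcript with the highest mean count, and the 11258 that averaged more than 1 RPKM in some group were tested. The other 24 libraries are BMDM-Nur77-KO at 0 and 1 h and BMDM-WT at 0, 1, 5 and 18 h, 4 each.

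All cells came from bone marrow of male mice aged 6 to 12 weeks, listed as strain C57Bl6/J, and were grown into macrophages for 7 days in medium conditioned by L929 cells. The LPS dose was 100 ng/ml at every time after 0 h. Nur77-KO mice lacked Nur77 (gene Nr4a1) in the whole body, after a Cre recombinase under the CMV promoter had acted on a loxP-flanked Nr4a1 locus. The Cre was then bred out, although the labels still give the knockout genotype as cre. BMDM-WT came from wild-type littermates, so the marrow donors differed in the germ line and not in an allele switched off during culture. Wells were seeded in 4 replicates, and nothing in the sources says how many animals gave them. The p-values therefore measure the spread between these libraries, which may be technical.

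LPS binds TLR4 on macrophages, which acts through MyD88 and TRIF to switch on NF-kB, AP-1 and interferon regulatory factors. Early genes encode cytokines, chemokines and their own inhibitors, and an interferon loop adds antiviral and antigen-presenting genes later. Resolution is the phase in which the early programme is wound down, through inhibitor proteins, mRNA decay and chromatin changes, and Nur77 is a nuclear receptor of the NR4A family that LPS itself induces.

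Library totals of the 8 libraries ran from 12251434 to 15780926 counts, and those of all 32 from 8742362 to 15780926. Levels are given as CPM, counts relative to the library total after TMM scaling, in the order of the replicate numbers. Log2 fold changes are 18 h minus 5 h with a standard error (SE, n = 4 libraries per group). SE and p-values come from 1 fit of all 32 libraries, which share the estimate of spread. With only the groups compared in the fit, p-values can be larger. For Adgre1 the edgeR adjusted p went from 7.21e-11 to 2.85e-04. A gene "fell" or "rose" where edgeR's quasi-likelihood test gave a Benjamini-Hochberg adjusted p below 0.05 together with a change beyond 1 on the log2 scale, and it was "held" where it was not called and the 95% interval of its log2 fold change lay within 1 either way. A held gene may still be higher or lower by less than that. These are bulk libraries, in which fewer cells of a type and less RNA per cell cannot be told apart.

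The genotype check on Nr4a1 was clear before the window studied here and weak inside it. Nr4a1 was lower in BMDM-Nur77-KO by a log2 fold change of -1.90 ± 0.19 at 0 h (edgeR adjusted p = 1.53e-08) and of -1.20 ± 0.15 at 1 h (edgeR adjusted p = 1.85e-06). At 1 h its rows still held 146 to 243 CPM in BMDM-Nur77-KO, against 359 to 485 CPM in BMDM-WT. The table counts whole transcripts and does not show which exons the reads came from. At 5 h and 18 h the knockout libraries had at most 7 and 5 counts of Nr4a1, so the gene says little about the labels there. Its log2 fold change between the 2 times, -0.45 ± 0.70, rests on these few counts.

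Macrophage markers were strong in all 8 libraries, with 12 of 12 tested and a summed level of 14294 to 17036 CPM at 5 h and 11950 to 13500 CPM at 18 h. Among neutrophil markers 5 of 10 never passed 3 counts, Elane was at 0, and the sum was 40.6 to 48.9 CPM at 5 h against 20.9 to 24.8 CPM at 18 h. The T and NK cell markers Cd3d and Klrb1c were at 0, and a sum of 22.0 to 38.4 CPM at 5 h against 1.64 to 2.94 CPM at 18 h was nearly all Lck. Dendritic cell markers summed to 271 to 380 CPM and 116 to 128 CPM, mostly Itgax, with Flt3 and Cd209a at no more than 2 counts. Mast cell and basophil markers summed to 37.9 to 63.6 CPM and 23.5 to 36.1 CPM, with Fcer1a and Tpsb2 at 0. B cell, fibroblast and erythroid markers stayed at or under 4.25 CPM in sum. The part of other cell types in the changes described here was not tested.

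One library at each time stood apart from its group. Replicate 1 at 5 h and replicate 4 at 18 h lay at 53.0 and 39.9 on the second principal component, and the other 6 libraries between -34.1 and -3.06. Their deviations from their group means had a correlation of 0.733 across genes, and correlated with transcript GC content at -0.607 and -0.599, against -0.00538 to 0.522 in the other 6. The first component, with 74.8% of the variance, separated 5 h from 18 h without overlap. Both libraries were kept, and the main counts are given below with and without them.

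**Figure D1:**
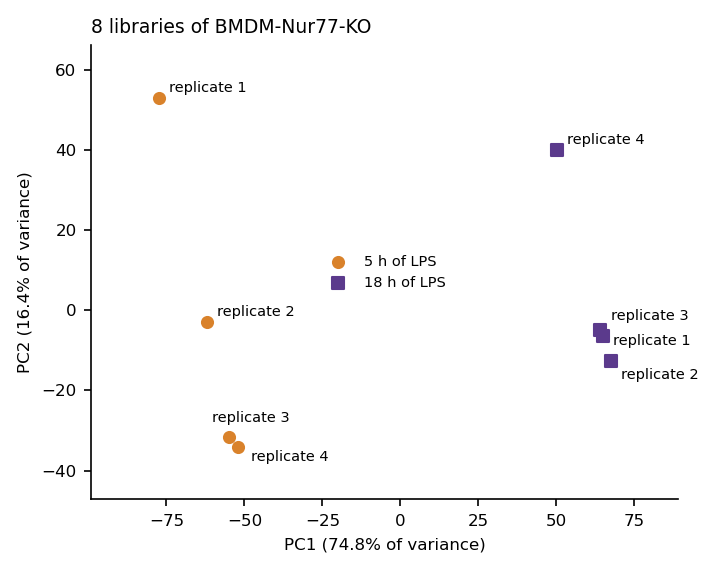
Principal components of the 8 BMDM-Nur77-KO libraries, with the first component (74.8% of the variance) on the x axis and the second (16.4%) on the y axis; each point is 1 library, coloured by time. The 2 times separate along the first component, and replicate 1 at 5 h and replicate 4 at 18 h sit above the rest on the second.

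Between 5 h and 18 h the knockout macrophages changed about as many genes downwards as upwards. Of 11258 genes tested, 1605 fell (14.3%), 1607 rose (14.3%), 6100 were held (54.2%) and 1946 met none of these definitions (17.3%). The median log2 fold change over all tested genes was 0.01. Without both libraries that stood apart, 1582 genes fell and 1609 rose, of which 1520 and 1530 were among the genes called with all libraries. In 2732 genes (24.3%) every library at 18 h lay below every library at 5 h, and in 2800 (24.9%) above. At an adjusted p under 0.05 with no limit on the fold, 3820 genes were lower (33.9%) and 3930 higher (34.9%). The same test and limit of 1 in BMDM-WT called 1604 genes lower (14.2%) and 1788 higher (15.9%).

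The 8 genes with the steepest falls had different known roles. Gja1, the gap junction protein connexin 43, was at 59.3, 59.4, 47.8 and 46.8 CPM at 5 h and 0.358, 0.0891, 0.210 and 0.164 CPM at 18 h. Every library at 18 h was near 0, with a log2 fold change of -7.95 ± 0.27 (edgeR adjusted p = 4.43e-21). Sele, the adhesion molecule E-selectin, went from a range of 38.4 to 45.4 CPM at 5 h to one of 0.179 to 0.631 CPM at 18 h, a change of -6.72 ± 0.20 on the log2 scale. F3, tissue factor, which starts coagulation, and Olr1, a receptor for oxidised LDL, changed by -6.59 ± 0.19 and -5.94 ± 0.18. For Olr1 the 5 h libraries held 485, 369.7, 315 and 292 CPM and the 18 h libraries 7.17, 4.10, 5.47 and 7.04 CPM. Hbegf, a ligand of the EGF receptor, changed by -5.77 ± 0.14, Tnfsf4 (OX40 ligand) by -5.68 ± 0.15, Gprc5c, an orphan receptor, by -5.92 ± 0.30, and the neutrophil chemokine Cxcl1 by -5.50 ± 0.35. In each of these 8 genes all 4 libraries at 18 h were below all 4 at 5 h, as the rule that named them required.

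The steepest rises included those of Gdf15, Trib3 and Tfeb. Gdf15, a stress-induced cytokine of the TGF-beta family, was at 0, 0.336, 0.384 and 0.688 CPM at 5 h and 30.3, 39.2, 49.4 and 15.6 CPM at 18 h. It was close to absent at 5 h, and its lowest library at 18 h was replicate 4, which stood apart. The log2 fold change was 6.51 ± 0.42. Trib3, a pseudokinase induced by ATF4, changed by 5.48 ± 0.30, from a range of 0.295 to 0.959 CPM at 5 h to one of 14.5 to 25.7 CPM at 18 h. Tfeb, a master regulator of lysosomal genes, was at 0.436, 1.17, 1.53 and 1.57 CPM at 5 h and 33.2, 41.5, 42.5 and 27.0 CPM at 18 h. Its log2 fold change was 4.90 ± 0.19, with no overlap, and its level before LPS was 27.4 ± 3.15 CPM (SD, n = 4). The kinase gene Wnk2, the chloride channel gene Clic5, Lhfpl2, Narf and Tmem86a, which encodes a lysoplasmalogenase, changed by 6.39, 5.14, 4.78, 4.77 and 4.60 on the log2 scale.

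To ask how far the inflammatory programme was wound down, genes were sorted by what LPS did to them in BMDM-WT. The fold used for this compared wild-type libraries only, but the estimate of spread was shared with the knockout libraries. LPS had raised 1765 genes in BMDM-WT at 5 h over 0 h (15.7% of those tested). In BMDM-Nur77-KO 599 of them fell between 5 h and 18 h (33.9%), 717 were held (40.6%), 209 rose further (11.8%) and 240 met none of the definitions. The share that fell stands beside 14.3% of all tested genes and the share held beside 54.2%. The median log2 fold change of these genes was -0.52, with quartiles at -1.33 and 0.24. Without both libraries that stood apart, 591 fell, 737 were held and 214 rose.

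Falling did not always mean returning to the level before LPS. Of the 599 induced genes that fell, 174 had a mean at 18 h at or below the 0 h mean of BMDM-Nur77-KO, and 217 were still called more than 2-fold above it, a call that 15.4% of all tested genes received. For 1758 induced genes whose knockout level at 5 h exceeded that at 0 h, the share of the 5 h gain in CPM still present at 18 h was computed. Its median was 56.0%, with quartiles at 17.8% and 123%, and computed from each 18 h library alone it was 50.9% to 59.6%. Under 10% was left for 316 genes, over 50% for 942, and over 100% for 546.

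Genes that LPS had lowered rose more often than they fell. BMDM-WT had 2027 genes lowered at 5 h (18.0%). In BMDM-Nur77-KO 784 of these rose between 5 h and 18 h (38.7%), 227 fell further, 602 were held and 414 met none of the definitions. Rising did not always mean a return either. Of the 784 that rose, 339 had a mean at 18 h at or above the 0 h mean of BMDM-Nur77-KO, beside 1151 of the 1607 that rose among all tested genes. Late genes, raised in BMDM-WT at 18 h and at neither 1 h nor 5 h, numbered 470 (4.17%). Of these, 320 rose in BMDM-Nur77-KO (68.1%), 72 were held and 78 met none of the definitions, against 14.3% rising among all genes. The first wave, 387 genes raised in BMDM-WT at 1 h (3.44%), had 185 that fell (47.8%), 118 held and 32 that rose, with a median of -0.92. Seen from the other side, 599 of the 1605 genes that fell (37.3%) were induced at 5 h in BMDM-WT, 227 (14.1%) were lowered and 779 (48.5%) were neither.

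**Figure D2:**
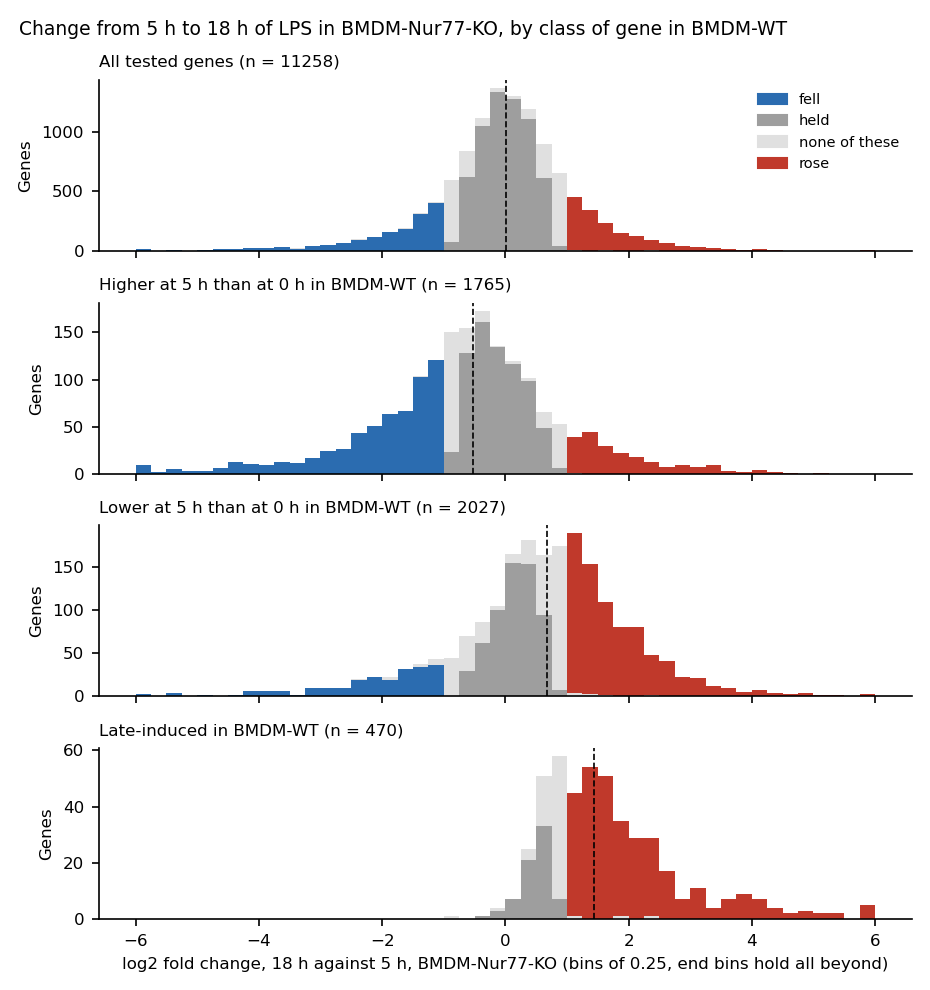
Histograms of the log2 fold change from 5 h to 18 h in BMDM-Nur77-KO (x axis, bins of 0.25, end bins holding all values beyond) against the number of genes (y axis), for all 11258 tested genes and for the genes raised at 5 h, lowered at 5 h and raised late in BMDM-WT; dashed lines mark medians. The genes raised at 5 h centre on -0.52, and those raised late lie almost wholly above 0.

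Promoter sequence is shown for 3 single genes: Il6, which fell, Rsad2, which was held, and Bst2, which rose. They are examples and do not represent the other genes that took the same course. Capitals mark matches, on either strand, to the AP-1 element TGANTCA or to the interferon-stimulated response element (ISRE), searched as GAAA, any 2 bases and GAAA, whose 2 matches in Bst2 overlap. Of 8913 RefSeq promoters of 300 bases, 5.08% held TGANTCA and 3.41% held the ISRE. The 250 bases before the start site, 5′ to 3′ on the strand of the gene, are from RefSeq on GRCm38.p6. They lie at chr5:30012864-30013113 on the plus strand for Il6, and on the minus strand at chr12:26456453-26456702 for Rsad2 and chr8:71537473-71537722 for Bst2.
Il6: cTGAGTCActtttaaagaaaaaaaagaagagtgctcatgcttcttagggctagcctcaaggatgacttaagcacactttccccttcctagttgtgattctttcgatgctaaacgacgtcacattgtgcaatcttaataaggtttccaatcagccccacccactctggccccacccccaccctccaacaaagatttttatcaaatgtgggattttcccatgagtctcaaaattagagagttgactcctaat
Rsad2: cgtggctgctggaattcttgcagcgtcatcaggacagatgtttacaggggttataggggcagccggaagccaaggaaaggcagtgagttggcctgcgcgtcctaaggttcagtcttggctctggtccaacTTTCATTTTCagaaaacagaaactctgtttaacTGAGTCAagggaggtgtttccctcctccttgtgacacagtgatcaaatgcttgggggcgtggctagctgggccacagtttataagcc
Bst2: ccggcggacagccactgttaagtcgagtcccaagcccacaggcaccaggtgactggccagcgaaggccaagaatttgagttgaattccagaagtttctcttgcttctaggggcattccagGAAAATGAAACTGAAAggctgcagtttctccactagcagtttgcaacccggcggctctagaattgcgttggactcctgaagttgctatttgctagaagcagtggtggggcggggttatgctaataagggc
Of these 2 motifs, the only ones marked, the Il6 window holds an AP-1 match, the Bst2 window the ISRE, and the Rsad2 window both. An NF-kB motif was also searched, and 51.4% of the promoters held it on the strand of the gene alone. With both strands read, each of the 3 windows holds an NF-kB match that is not marked. The marks therefore do not set AP-1 apart from NF-kB in these genes. A match describes the letters and shows no binding. The shares of genes with each motif among those that fell and rose are not reported here. Only 79.2% of the tested genes had a promoter entry, so no comparison of such shares is drawn.

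**Figure D3:**
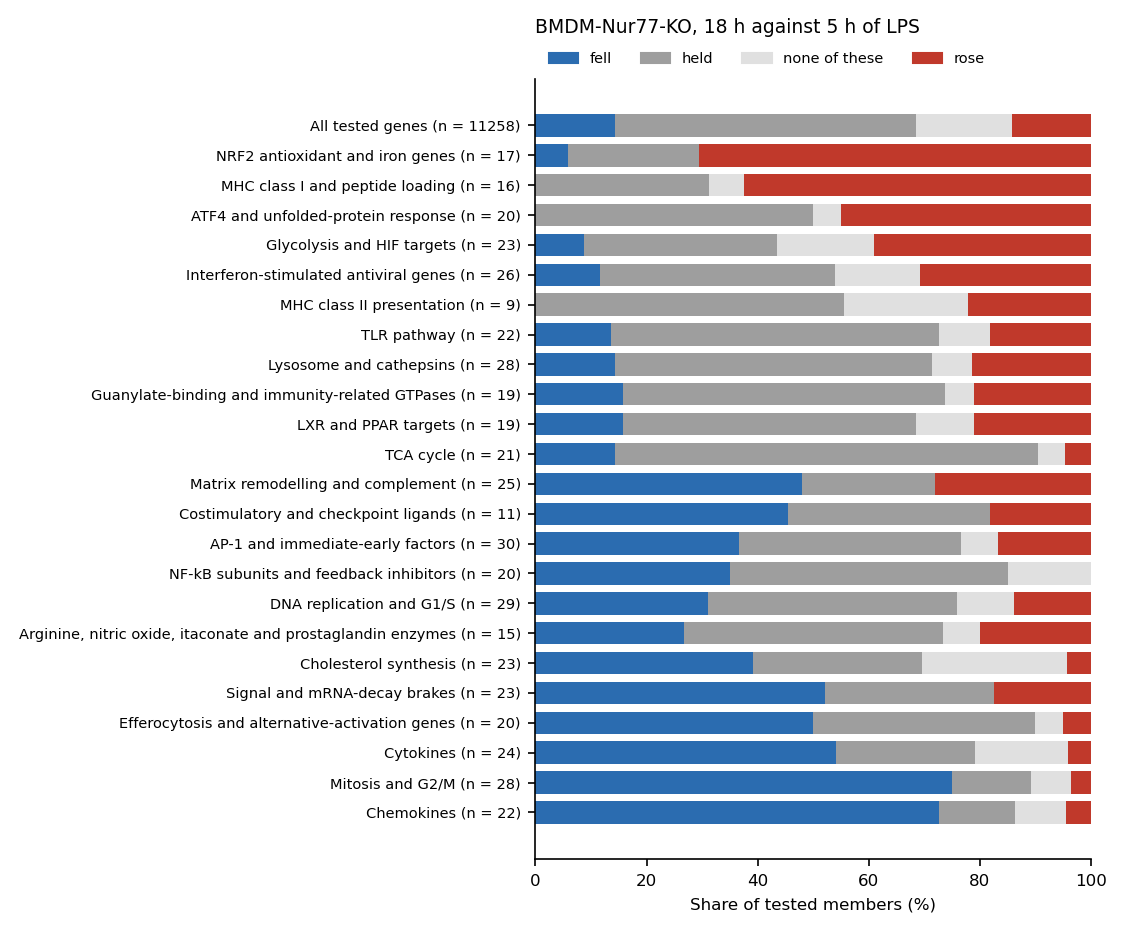
For each of 23 gene lists, the share of its tested members (x axis, percent) that fell, were held, met no definition or rose from 5 h to 18 h in BMDM-Nur77-KO, with all tested genes as the first bar and lists sorted by their median log2 fold change. Chemokines and mitosis genes lie at the falling end, and NRF2 and iron genes and the MHC class I genes at the rising end.

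More than 1 in 2 cytokine genes declined, and several kept a part of their gain over the level before LPS. Of 24 tested cytokines 13 fell, 1 rose and 6 were held, with a median log2 fold change of -1.16. Il6, which encodes an acute-phase cytokine (chr5:30013114-30019975), stood at 499, 332, 301 and 301 CPM at 5 h and 47.7, 43.3, 53.4 and 64.8 CPM at 18 h. All 18 h libraries were below all 5 h libraries, replicate 1 at 5 h was the highest, and the mean was 6.85-fold lower (log2 fold change -2.78 ± 0.20, edgeR adjusted p = 5.72e-12). At 18 h 14.6% of the 5 h gain remained. Il1a, an alarmin cytokine (chr2:129299609-129310186), was at 3135, 2398, 2374 and 2236 CPM at 5 h and 683, 549, 634 and 741 CPM at 18 h. Il1b, whose product needs inflammasome cleavage, was at 2024, 1989, 2259 and 2178 CPM at 5 h and 512, 425, 415 and 380.3 CPM at 18 h. Neither gene's groups overlapped, and the log2 fold changes were -1.96 ± 0.13 (edgeR adjusted p = 2.01e-14) and -2.29 ± 0.14 (edgeR adjusted p = 4.36e-15).

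Tnf and Il12b declined less. Tnf, the early cytokine that acts through NF-kB, was at 635, 1026, 1134 and 1181 CPM at 5 h and 461, 469, 460.1 and 337 CPM at 18 h. The groups did not overlap, although replicate 1 at 5 h and replicate 4 at 18 h were each the lowest of their group. The log2 fold change was -1.20 ± 0.12 (edgeR adjusted p = 6.50e-10) and 41.6% of the 5 h gain was left. Il12b, the p40 chain shared by IL-12 and IL-23, was at 273, 246, 240.4 and 235 CPM at 5 h and 119, 99.8, 100.3 and 115 CPM at 18 h. Its change was -1.19 ± 0.10 (edgeR adjusted p = 1.21e-11), with 43.7% of the gain left. Il12a, the p35 chain of IL-12, went from 9.81, 6.55, 5.18 and 7.57 CPM to 3.67, 3.57, 4.07 and 3.27 CPM. It was lower in every library, but its log2 fold change of -0.99 ± 0.19 did not pass the limit of 1 (edgeR adjusted p = 7.83e-05).

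The alarmin Il33 and Il27, a cytokine that acts on T cells, fell by larger steps. Il33 was at 26.2, 17.1, 13.8 and 13.2 CPM at 5 h and 0.448, 0.713, 1.12 and 1.15 CPM at 18 h, a log2 fold change of -4.31 ± 0.28. Il27 was at 56.9, 121, 158 and 165 CPM at 5 h and 25.6, 30.0, 27.2 and 17.0 CPM at 18 h, with replicate 1 the lowest at 5 h and replicate 4 the lowest at 18 h, and changed by -2.33 ± 0.21. Il23a, the p19 chain of IL-23, had 1.67 to 2.83 CPM at 5 h and no more than 2 counts in any library at 18 h, so no fold is given. Tnfsf9 (4-1BB ligand) changed by -2.84 ± 0.14. Il16, a chemoattractant for T cells, was the 1 cytokine that rose, from a range of 1.05 to 1.77 CPM at 5 h to one of 4.58 to 5.88 CPM at 18 h (log2 fold change 1.97 ± 0.20, edgeR adjusted p = 3.82e-10). Without replicate 4 of either time, 2 cytokines rose.

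Cytokines that restrain or sustain the response were among those held. Il10, the main inhibitory cytokine of macrophages, was at 14.3, 13.8, 11.8 and 12.2 CPM at 5 h and 8.06, 7.76, 7.15 and 9.49 CPM at 18 h. Every 18 h library was lower, but the 95% interval of the log2 fold change, -0.97 to -0.39, stayed within the limit (log2 fold change -0.68 ± 0.14, edgeR adjusted p = 9.86e-05). Il1rn, the IL-1 receptor antagonist, was at 3875, 2849, 2248 and 2303 CPM at 5 h and 2298, 2138, 2461 and 3636 CPM at 18 h. Its groups overlapped, with the 2 libraries that stood apart highest at each time, and its interval was -0.39 to 0.19. Ifnb1, interferon beta, kept its level, with 3.71, 5.54, 4.99 and 4.13 CPM at 5 h and 5.73, 5.08, 5.05 and 5.97 CPM at 18 h and an interval of -0.10 to 0.58. Csf2 (GM-CSF) was at 0.393 to 1.09 CPM and 0.357 to 0.982 CPM and met no definition, and Csf3 (G-CSF) had at most 4 counts in a library and was not tested.

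Most chemokine genes fell. Of 22 tested 16 fell, 1 rose and 3 were held, with a median of -1.81. Cxcl2, a neutrophil attractant, was at 109, 125, 130.0 and 119 CPM at 5 h and 22.5, 19.4, 21.9 and 19.1 CPM at 18 h. The groups were far apart (log2 fold change -2.54 ± 0.09, edgeR adjusted p = 4.54e-21). Ccl2, a monocyte attractant, was at 1012, 885, 944 and 900.4 CPM at 5 h and 319, 289, 351 and 374 CPM at 18 h, a log2 fold change of -1.49 ± 0.13. Cxcl10, an interferon-induced T cell attractant, was at 7191, 6609.5, 6543 and 6469 CPM at 5 h and 2754, 2569, 2865 and 2828 CPM at 18 h. It changed by -1.28 ± 0.08 (edgeR adjusted p = 1.71e-14) and kept 41.1% of its gain. Cx3cl1, the membrane-bound chemokine fractalkine, was at 1.31 to 4.79 CPM and 0.0891 to 0.280 CPM, and Ccl17, a T helper cell attractant, had no more than 2 counts in any library at 18 h.

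Ccl5 was the 1 chemokine gene that rose. This attractant of T cells and monocytes was at 837, 1185, 1608 and 1794 CPM at 5 h and 4861, 4814, 4982 and 3042 CPM at 18 h. The lowest library at 18 h, replicate 4, was still above the highest at 5 h, and the log2 fold change was 1.71 ± 0.18 (edgeR adjusted p = 1.68e-09). Cxcl11, like Cxcl10 a ligand of CXCR3, was held at 126, 102, 90.6 and 92.0 CPM at 5 h and 154, 124, 152 and 181 CPM at 18 h, with overlapping groups and an interval of 0.29 to 0.86. Without replicate 3 or 4 at 5 h, or without replicate 4 at 18 h, 2 chemokines rose in place of 1.

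The NF-kB system lost some of its subunits and inhibitors and kept others. Of 20 tested members 7 fell, 10 were held and 3 met neither definition, with a median of -0.48. Tnfaip3, which encodes the ubiquitin-editing inhibitor A20, was at 1538, 1614, 1538 and 1570.3 CPM at 5 h and 363, 370.0, 366 and 352 CPM at 18 h. Its libraries at each time were within a narrow range and far apart between times (log2 fold change -2.11 ± 0.06, edgeR adjusted p = 2.97e-23). Nfkbiz, an atypical IkB protein needed for a class of secondary genes, was at 471, 419, 378 and 377 CPM at 5 h and 67.8, 64.2, 68.8 and 69.8 CPM at 18 h, and Rel, the NF-kB subunit c-Rel, at 791, 633, 592 and 508 CPM at 5 h and 96.1, 89.9, 100.0 and 134 CPM at 18 h. Their log2 fold changes were -2.60 ± 0.09 and -2.59 ± 0.13. Nfkbia (IkB alpha), itself an NF-kB target, was at 746, 660.4, 679.7 and 707 CPM at 5 h and 368, 374, 391 and 354 CPM at 18 h. All libraries were lower at 18 h, but -0.91 ± 0.07 on the log2 scale did not pass the limit.

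Brakes on signalling and on mRNA stability divided. Of 23 tested 12 fell, 4 rose and 7 were held, with a median of -1.01. Socs3, a feedback inhibitor of cytokine receptors, was at 371, 737, 800.3 and 852 CPM at 5 h and 189.5, 173, 196 and 129.6 CPM at 18 h. The lowest library at each time was one of those that stood apart, the groups did not overlap, and the log2 fold change was -2.005 ± 0.17 (edgeR adjusted p = 9.59e-12). Cish, another inhibitor of cytokine receptors, changed by -3.53 ± 0.26, from a range of 8.07 to 22.5 CPM at 5 h to one of 1.15 to 2.24 CPM at 18 h, and Dusp14, a phosphatase of MAP kinase pathways, went from a range of 1.96 to 3.36 CPM at 5 h to one of 0 to 0.327 CPM at 18 h. Zfp36l1, which drives decay of AU-rich mRNAs, rose from 9.92, 7.38, 6.33 and 5.80 CPM to 37.5, 32.8, 36.2 and 52.5 CPM. Its change was 2.44 ± 0.15 (edgeR adjusted p = 4.03e-15), and before LPS it had stood at 160.3 ± 11.8 CPM (SD, n = 4). Pdlim2, an adaptor that promotes degradation of nuclear RelA, rose by 1.91 ± 0.14, and the MAP kinase phosphatase gene Dusp8 by 1.53 ± 0.34 from a low level of 0.295 to 0.436 CPM.

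Of the AP-1 family and other immediate-early factors, the early growth response genes Egr2 and Egr3 fell, as did Fosb and Fosl2. Fos and the Jun genes Jun, Junb and Jund were held. The call for Fosb was close to the limit (log2 fold change -1.73, edgeR adjusted p = 0.0431), and that for Fosl2 was not (-2.89, edgeR adjusted p = 2.62e-18). Among 30 tested 11 fell, 5 rose and 12 were held, with a median of -0.47. Egr2 was at 49.9, 51.9, 49.4 and 52.3 CPM at 5 h and 0.627, 1.25, 1.47 and 1.31 CPM at 18 h, and Egr3 at 32.3, 27.7, 23.6 and 23.1 CPM at 5 h and 2.69, 2.85, 4.91 and 2.13 CPM at 18 h. Both zinc-finger factors were far lower at 18 h in every library, with changes of -5.41 ± 0.13 and -3.05 ± 0.19 on the log2 scale. Fos, a partner of Jun proteins in AP-1, was at 45.8, 43.3, 40.3 and 34.0 CPM at 5 h and 22.2, 21.4, 26.3 and 27.9 CPM at 18 h. Its 18 h libraries were all lower, with an interval of -0.95 to -0.53 inside the limit.

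The Jun genes showed the libraries that stood apart. Jun was at 94.4, 87.4, 66.0 and 74.6 CPM at 5 h and 55.0, 50.1, 56.5 and 67.1 CPM at 18 h, with the groups overlapping and an interval of -0.69 to -0.29. Junb was at 102, 207, 265 and 260.3 CPM at 5 h and 178, 183, 235 and 107 CPM at 18 h, the lowest library at each time being the one that stood apart. Its edgeR adjusted p was 0.257 with all libraries and 0.0229 without both, in the direction of a lower level at 18 h. Jund was at 117, 106, 118 and 112 CPM at 5 h and 82.4, 87.5, 119.5 and 90.3 CPM at 18 h. Replicate 3 at 18 h was above every 5 h library and the other 3 were below the 5 h range. The log2 fold change was -0.25 ± 0.11, and the edgeR adjusted p was 0.0445 with all libraries but 0.130 without both.

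Other members moved in their own directions. Atf3, a repressor of many TLR-induced genes, was held at 936, 786, 803 and 821 CPM at 5 h and 785, 833, 833 and 816 CPM at 18 h, with an interval of -0.17 to 0.10. Batf, an AP-1 partner of IRF factors, rose from 32.5, 30.3, 26.8 and 22.2 CPM to 84.2, 94.9, 89.9 and 95.7 CPM (log2 fold change 1.71 ± 0.12, edgeR adjusted p = 3.40e-13). Klf4, a zinc-finger factor of monocytes and macrophages, was at 7.85, 7.55, 6.90 and 8.55 CPM at 5 h and 45.0, 45.2, 62.5 and 44.0 CPM at 18 h. It was about level among the 5 h libraries, replicate 3 was the highest at 18 h, and the log2 fold change was 2.67 ± 0.14 (edgeR adjusted p = 5.39e-17). Klf2, its relative, rose by 1.95 ± 0.23. With a trend on GC content removed from each library, 3 members of the list rose in place of 5. Of the other 2 NR4A receptors, Nr4a3 fell from 14.9, 10.9, 10.9 and 8.06 CPM to 0.627, 0.446, 0.701 and 1.31 CPM (log2 fold change -3.83 ± 0.27, edgeR adjusted p = 1.07e-13), and Nr4a2 was held at 8.29, 4.20, 3.64 and 4.91 CPM at 5 h and 3.14, 4.99, 4.35 and 6.05 CPM at 18 h, with overlapping groups and an interval of -0.60 to 0.27.

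Interferon-stimulated antiviral genes rose more often than they fell. Of 26 tested 3 fell, 8 rose and 11 were held, with a median of 0.61 against 0.01 over all genes. Irf7, the factor that amplifies type I interferon, was at 391, 508, 532 and 589 CPM at 5 h and 2209.6, 2206, 2155 and 1798 CPM at 18 h. Its 18 h libraries were all above the 5 h range (log2 fold change 2.05 ± 0.12, edgeR adjusted p = 3.41e-15). Bst2, which tethers budding virus (chr8:71534255-71537472), was at 33.1, 86.1, 127 and 131 CPM at 5 h and 637, 669, 657 and 308 CPM at 18 h. Replicate 1 at 5 h and replicate 4 at 18 h were the lowest of their groups, without overlap, and the change was 2.59 ± 0.25 (edgeR adjusted p = 1.77e-10). Isg20, an exonuclease, rose from 90.9, 46.3, 38.5 and 44.2 CPM to 241, 243, 245 and 323 CPM, a change of 2.26 ± 0.19.

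Rsad2, the antiviral enzyme viperin (chr12:26442743-26456452), was at 27529, 23052, 20868 and 20849 CPM at 5 h and 16986, 16737, 17748 and 20496 CPM at 18 h. The lowest value at 5 h was just above the highest at 18 h. The log2 fold change was -0.36 ± 0.13, the interval -0.62 to -0.10, and the gene was held at 77.9% of its gain. Oasl1, a translational regulator of Irf7, was held with higher levels at 18 h, at 416, 586, 650.2 and 661 CPM at 5 h and 923, 943, 896 and 786 CPM at 18 h and an interval of 0.32 to 0.92. The genes that fell encode sensors and effectors of viral RNA. Ifih1 (MDA5) was at 6443, 4063, 3291 and 3109 CPM at 5 h and 1056, 1002, 1116 and 1534 CPM at 18 h, a change of -1.84 ± 0.16. Eif2ak2 (PKR) was at 1302, 887, 729 and 675 CPM at 5 h and 366, 357, 348 and 488 CPM at 18 h, a change of -1.20 ± 0.14. Ifit1, which has near-identical relatives that can share its reads, changed by -1.18 ± 0.13. With the GC trend removed, 1 of the list fell in place of 3.

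Of 19 interferon-gamma-type GTPases 3 fell, 4 rose and 11 were held, with a median of -0.09. These shares are near those of all tested genes, of which 14.3% fell, 14.3% rose and 54.2% were held. Gbp9, a guanylate-binding protein, was at 2309, 1411, 982 and 1189 CPM at 5 h and 588, 566, 628 and 866 CPM at 18 h, and Ifi47, an immunity-related GTPase, at 837, 1065, 1291 and 1317 CPM at 5 h and 486, 469, 437 and 331 CPM at 18 h. Their log2 fold changes were -1.15 ± 0.21 and -1.39 ± 0.16, and that of Iigp1 was -1.35 ± 0.32. Gbp10, Gbp8 and Tgtp1 rose by 2.06 ± 0.23, 1.97 ± 0.26 and 1.82 ± 0.18. Members of these families are near-identical in sequence, and how reads were divided among them is uncertain.

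Genes of antigen presentation through MHC class I rose late. Of 16 tested genes 10 rose, 5 were held and 1 met neither definition, with a median of 1.19, and with the GC trend removed 6 rose. H2-Q4, a non-classical class I gene, was at 222, 184, 160.1 and 171 CPM at 5 h and 893, 879, 891 and 879 CPM at 18 h. All 18 h libraries lay in a narrow range above the 5 h libraries (log2 fold change 2.27 ± 0.10, edgeR adjusted p = 3.18e-18). H2-Q6 and H2-Q7 rose by 3.42 ± 0.16 and 3.03 ± 0.26, but H2-Q genes share much of their sequence and their values are uncertain. Among 9 class II genes 2 rose, 5 were held and 2 met neither definition, with a median of 0.55. Over all tested genes 14.3% rose and 54.2% were held. H2-DMb1, a chain of the peptide editor H2-DM, rose from 15.5, 29.3, 35.7 and 34.0 CPM to 68.3, 65.8, 59.5 and 46.4 CPM (log2 fold change 1.06 ± 0.16, edgeR adjusted p = 1.12e-06). Without replicate 1 at either time, without both libraries that stood apart, or with the GC trend removed, 1 class II gene rose.

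Enzymes that make inflammatory mediators took all 3 courses. Of 15 tested 4 fell, 3 rose and 7 were held, with a median of -0.54, beside 14.3%, 14.3% and 54.2% of all tested genes. Nos2, the inducible nitric oxide synthase, was at 782, 936, 978 and 979 CPM at 5 h and 1897, 1989, 1926 and 1721 CPM at 18 h. Every library at 18 h was above every library at 5 h, by 1.04 ± 0.14 on the log2 scale (edgeR adjusted p = 2.08e-07). With the GC trend removed its log2 fold change was 0.81. Ass1, which regenerates arginine for Nos2, rose from a range of 10.5 to 20.0 CPM at 5 h to one of 56.5 to 69.6 CPM at 18 h (log2 fold change 2.02 ± 0.14, edgeR adjusted p = 1.10e-13).

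Ptgs2 (cyclooxygenase-2), the enzyme that begins prostaglandin synthesis, was held. It was at 1478, 1153, 936 and 929 CPM at 5 h and 661, 616, 816 and 999.6 CPM at 18 h, and replicate 4 at 18 h reached into the 5 h range. Its log2 fold change was -0.54 ± 0.17 with an interval of -0.88 to -0.20, and 68.7% of the 5 h gain was left. Ptges, the synthase that makes prostaglandin E2 from the product of Ptgs2, rose from 22.5, 21.2, 25.3 and 25.2 CPM to 106, 107, 103 and 82.1 CPM (log2 fold change 2.08 ± 0.10, edgeR adjusted p = 3.19e-17). Ptgs1, the constitutive cyclooxygenase, and Alox5ap, which serves leukotriene synthesis, fell, with log2 fold changes of -1.74 ± 0.25 and -1.11 ± 0.09.

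Acod1, which makes itaconate, was held at a high share of its peak. It was at 9460.2, 8897, 8211 and 8165 CPM at 5 h and 6353, 6086, 6275 and 6735 CPM at 18 h, lower in every library at 18 h, with an interval of -0.73 to -0.17 and 73.3% of the gain left. Ch25h, which hydroxylates cholesterol to an antiviral oxysterol, was at 22.2, 23.5, 27.4 and 30.5 CPM at 5 h and 16.2, 16.9, 24.1 and 15.2 CPM at 18 h. Replicate 3 at 18 h overlapped the 5 h range, and the interval was -0.80 to -0.22. Adora2a, a receptor for adenosine, was held at 34.3, 44.4, 53.6 and 49.9 CPM at 5 h and 60.5, 59.0, 67.7 and 39.1 CPM at 18 h, with replicate 4 at 18 h inside the 5 h range and an interval of 0.01 to 0.61. Tarm1, an activating receptor of myeloid cells, was held at 198, 155, 117 and 115 CPM at 5 h and 154, 150.5, 158 and 241 CPM at 18 h, where replicate 1 at 5 h and replicate 4 at 18 h were the highest. The row named Mir147 was held too, at 8.29 to 30.9 CPM and 19.8 to 33.4 CPM, but it lies inside the row of gene AA467197, and reads of the pair cannot be told apart.

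**Figure D4:**
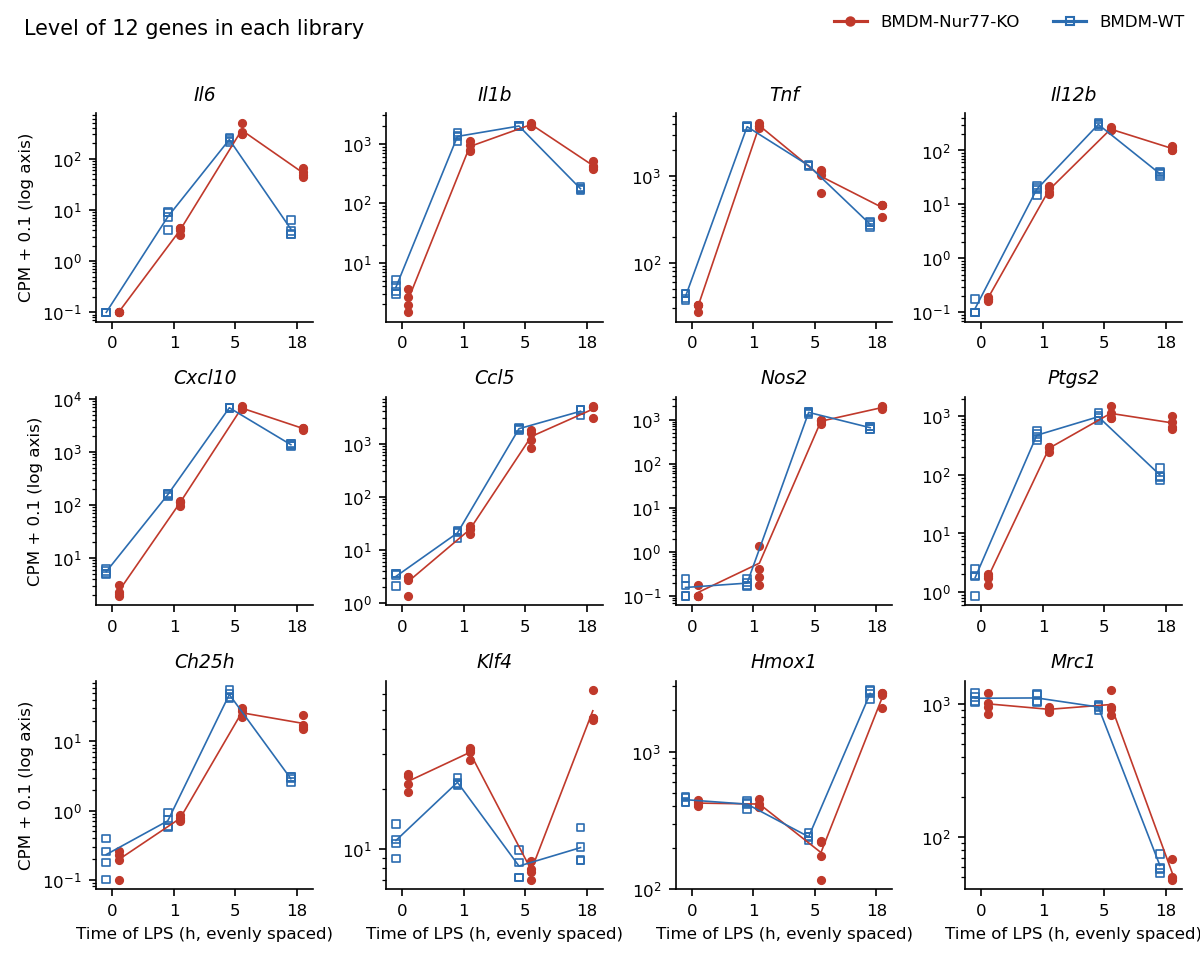
Levels of 12 genes (CPM + 0.1, log axis) at 0, 1, 5 and 18 h of LPS, evenly spaced on the x axis; filled circles are BMDM-Nur77-KO libraries, open squares BMDM-WT libraries and lines group means. Il6, Il1b and Tnf decline in both genotypes from 5 h to 18 h, by less in BMDM-Nur77-KO. Nos2, Ptgs2 and Ch25h stay high at 18 h in BMDM-Nur77-KO and drop in BMDM-WT.

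Costimulatory and checkpoint ligands, which macrophages show to T cells, were divided. Of 11 tested 5 fell, 2 rose and 4 were held, with a median of -0.34, beside 14.3%, 14.3% and 54.2% of all tested genes. Cd83, a marker of activated antigen-presenting cells, was at 585, 783, 808 and 779 CPM at 5 h and 78.7, 76.1, 78.2 and 72.8 CPM at 18 h. The 18 h level was close to the 75.04 ± 5.19 CPM (SD, n = 4) before LPS (log2 fold change -3.27 ± 0.12, edgeR adjusted p = 1.87e-20). Cd80, a ligand of CD28, was at 101, 86.4, 73.0 and 72.9 CPM at 5 h and 22.4, 20.4, 19.5 and 26.6 CPM at 18 h, a change of -1.90 ± 0.11. Lgals9 (galectin-9) rose from 304, 466, 456 and 473 CPM to 950.5, 985, 883 and 795 CPM, a change of 1.09 ± 0.10, and Pdcd1lg2 (PD-L2) by 1.13 ± 0.29 from 1.31 to 1.77 CPM. Without replicate 1 at 5 h, or with the GC trend removed, 1 of the list rose.

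Of 22 receptors and adaptors of the TLR pathway 3 fell, 4 rose and 13 were held, with a median of 0.05, again near the 14.3%, 14.3% and 54.2% of all tested genes. Tlr2, a receptor for bacterial lipoproteins, was at 271, 320.1, 398 and 355 CPM at 5 h and 99.2, 91.8, 89.7 and 70.0 CPM at 18 h, a change of -1.94 ± 0.12. Cd14, the co-receptor that hands LPS to TLR4, was at 479.8, 904, 1211 and 1259 CPM at 5 h and 345, 304, 313 and 189 CPM at 18 h, with -1.74 ± 0.19 on the log2 scale. Tlr7, a receptor for single-stranded RNA, changed by -1.24 ± 0.15. Tlr9, the receptor for unmethylated DNA, rose from 11.2, 20.5, 19.2 and 18.4 CPM to 314, 366, 328 and 306 CPM. This was a log2 fold change of 4.24 ± 0.15 (edgeR adjusted p = 1.03e-20), from near its level before LPS of 21.6 ± 3.48 CPM (SD, n = 4). The TRIF-pathway adaptors Ticam1 and Ticam2 rose by 1.40 ± 0.09 and 1.47 ± 0.07.

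Genes tied to clearance of dead cells and to alternative activation fell more often than they rose. Of 20 tested 10 fell, 1 rose and 8 were held, with a median of -1.04. Mrc1, the mannose receptor, was at 1264, 913, 936 and 821 CPM at 5 h and 47.8, 49.0, 49.99 and 68.2 CPM at 18 h. It was lower in every library, with a log2 fold change of -4.19 ± 0.14 (edgeR adjusted p = 1.49e-21), and its mean before LPS was 996 ± 153 CPM (SD, n = 4). Cd163, the haemoglobin scavenger receptor, went from a range of 2.36 to 4.32 CPM at 5 h to one of 0 to 0.358 CPM at 18 h. Mertk, a receptor for apoptotic cells, was held at 609, 521, 469 and 478 CPM at 5 h and 494, 506, 466 and 589.7 CPM at 18 h, with overlapping groups and an interval of -0.20 to 0.17. Marco, a scavenger receptor for bacteria, rose from 10.5, 8.22, 7.29 and 5.90 CPM to 126, 115, 106 and 136 CPM (log2 fold change 3.92 ± 0.17, edgeR adjusted p = 1.11e-18).

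Among targets of the lipid-sensing receptors LXR and PPAR, 3 of 19 fell, 4 rose and 10 were held, with a median of -0.26, beside 14.3%, 14.3% and 54.2% of all tested genes. Nr1h3, which encodes LXR alpha, was at 4.03, 8.90, 12.3 and 9.53 CPM at 5 h and 113, 119.6, 109 and 71.2 CPM at 18 h. Replicate 4 was the lowest at 18 h and still far above 5 h (log2 fold change 3.56 ± 0.20, edgeR adjusted p = 7.86e-16). Abcg1, a cholesterol exporter, was at 181, 235, 227 and 234 CPM at 5 h and 623, 635, 602 and 578 CPM at 18 h, a change of 1.48 ± 0.08. Mylip, an E3 ubiquitin ligase, rose by 2.02 ± 0.11. Lpl, lipoprotein lipase, fell from 12449.7, 9521, 8128 and 7807 CPM to 2581, 2496, 2932 and 3977 CPM, a change of -1.66 ± 0.13.

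Of 23 genes of cholesterol synthesis 9 fell, 1 rose and 7 were held, with a median of -0.79. Cyp51 and Idi1, enzymes of the pathway, changed by -1.80 ± 0.17 and -2.24 ± 0.18, with replicate 1 the highest at 5 h in both. Mvd, another enzyme, rose from a range of 1.20 to 4.62 CPM at 5 h to one of 9.00 to 17.0 CPM at 18 h. Without replicate 4 at 5 h or replicate 3 at 18 h, 2 genes of the list rose. Of 28 lysosomal genes 4 fell, 6 rose and 16 were held, with a median of -0.02 beside 0.01 over all genes. The shares that fell and were held are near the 14.3% and 54.2% of all tested genes, of which 14.3% rose. Neu1 (sialidase) and Ctsh (cathepsin H) rose by 1.83 ± 0.12 and 1.79 ± 0.10, while Galc (galactosylceramidase) and Man2b1 (alpha-mannosidase) fell, with log2 fold changes of -1.62 ± 0.08 and -1.09 ± 0.13, and Ctsf changed by -1.04 ± 0.17. Without replicate 3 at 5 h or replicate 4 at 18 h, 2 lysosomal genes fell.

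Glycolysis genes and hypoxia targets rose more often than they fell. Of 23 tested 9 rose, 2 fell and 8 were held, with a median of 0.76. Vegfa, the vascular growth factor and a HIF target, was at 16.4, 20.5, 16.9 and 16.3 CPM at 5 h and 189, 219, 192 and 223 CPM at 18 h. It was low in all 5 h libraries and returned to near its level before LPS of 224 ± 21.8 CPM (SD, n = 4), a change of 3.55 ± 0.10 (edgeR adjusted p = 7.21e-23). Egln3, an oxygen sensor, and Ankrd37, both HIF targets, rose by 2.67 ± 0.38 and 2.67 ± 0.42 from under 1 CPM at 5 h. Hk2 and Pfkp, enzymes of the first steps of glycolysis, fell, with log2 fold changes of -1.20 ± 0.06 and -1.17 ± 0.06. In the TCA cycle 16 of 21 genes were held, 3 fell and 1 rose, with a median of -0.28. Of all tested genes 54.2% were held, 14.3% fell and 14.3% rose. Idh2, mitochondrial isocitrate dehydrogenase, was at 27.0, 33.1, 37.9 and 36.4 CPM at 5 h and 10.2, 10.3, 9.96 and 8.75 CPM at 18 h, a change of -1.78 ± 0.10, and Idh3a and Suclg2 changed by -1.26 ± 0.09 and -1.21 ± 0.12. Sdhb, a subunit of succinate dehydrogenase, was just past the limit at 1.03 ± 0.08. With DESeq2, with its size factors, without replicate 2 at 5 h or replicate 1 at 18 h, or with the GC trend removed, Sdhb no longer passed both limits, and 2 genes of the list rose under either other filter on low counts.

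Genes of oxidative stress defence and iron handling mostly rose. Of 17 NRF2 and iron genes 12 rose, 1 fell and 4 were held, with a median of 1.30. Hmox1, haem oxygenase, was at 117, 175, 225 and 221 CPM at 5 h and 2685, 2603, 2678 and 2089 CPM at 18 h. The groups were far apart, replicate 1 at 5 h and replicate 4 at 18 h were the lowest of theirs, and the log2 fold change was 3.77 ± 0.13 (edgeR adjusted p = 7.61e-21). Gclm, a subunit of the enzyme that limits glutathione synthesis, rose by 2.41 ± 0.10. Slc40a1, the iron exporter ferroportin, was at 22.4, 17.1, 22.6 and 20.2 CPM at 5 h and 146, 131, 146 and 142 CPM at 18 h, a change of 2.78 ± 0.10, and Tfrc, the transferrin receptor that imports iron, at 309, 248, 277 and 238 CPM at 5 h and 39.8, 38.1, 48.2 and 47.9 CPM at 18 h, a change of -2.62 ± 0.16. Of 20 genes of the ATF4 and unfolded-protein responses 9 rose, 10 were held and 1 met neither definition, with a median of 0.80. Chac1 and Ddit4, both ATF4 targets, rose from no more than 3 counts in any library at 5 h to 1.88 to 2.87 CPM and 2.15 to 3.86 CPM.

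Most genes of mitosis fell, and the libraries that stood apart had a higher level of them than the rest of their groups. Of 28 genes of mitosis and G2/M 21 fell, 1 rose and 4 were held, with a median of -1.60, and without both libraries 19 fell. The summed level of the list was 784 CPM in replicate 1 at 5 h and 443 to 560 CPM in the other 3, and 583 CPM in replicate 4 at 18 h against 376 to 390 CPM in the others. Most of the sum at 18 h was Tpx2, the 1 gene of the list that rose, so the sum understates the fall of the rest. Ube2c, a ubiquitin-conjugating enzyme of mitotic exit, was at 6.21, 6.21, 8.34 and 7.47 CPM at 5 h and 0.269, 0.0891, 0.351 and 0.164 CPM at 18 h, a change of -4.91 ± 0.23. Ccnb2, cyclin B2, was at 7.20, 7.72, 5.18 and 5.90 CPM at 5 h and 0.179, 0.891, 0.210 and 0.327 CPM at 18 h, a change of -4.02 ± 0.26. Tpx2, a spindle assembly factor, rose from 193, 141, 112 and 109 CPM to 254, 257, 272 and 398 CPM (log2 fold change 1.09 ± 0.14, edgeR adjusted p = 3.32e-08). Without replicate 3 or 4 at 5 h, or replicate 4 at 18 h, Tpx2 no longer passed both limits.

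Genes of DNA replication and G1/S were more mixed, with 9 of 29 falling, 4 rising and 13 held, and a median of -0.49. The shares over all tested genes were 14.3%, 14.3% and 54.2%. Rrm2, a subunit of ribonucleotide reductase, was at 8.50, 10.1, 11.3 and 11.8 CPM at 5 h and 1.08, 1.69, 0.701 and 0.900 CPM at 18 h, a change of -3.27 ± 0.18. Pola1, a subunit of DNA polymerase alpha, and Tk1, thymidine kinase, changed by -2.18 ± 0.20 and -2.16 ± 0.36. Ccne1, cyclin E1, rose from 16.2, 16.3, 15.2 and 15.1 CPM to 44.4, 47.8, 49.1 and 48.8 CPM, a change of 1.60 ± 0.11 (edgeR adjusted p = 5.33e-14). Cdc6, which loads replication helicases, and E2f2 rose by 1.63 ± 0.28 and 2.75 ± 0.48 from under 1 CPM at 5 h.

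Matrix and complement genes split, with 12 of 25 falling, 7 rising and 6 held, and a median of -0.28. C5ar1, the receptor for complement C5a, was at 622, 671, 685 and 669 CPM at 5 h and 43.5, 38.4, 37.4 and 43.4 CPM at 18 h. It was lower in every library, with a log2 fold change of -4.02 ± 0.08 (edgeR adjusted p = 9.16e-27), and below its level before LPS of 536 ± 18.9 CPM (SD, n = 4). Cfb, which drives the alternative pathway, rose from 76.8, 108, 110.2 and 117 CPM to 963, 926, 833 and 728 CPM, a change of 3.07 ± 0.14. Saa3, an acute-phase protein, rose from 266, 255, 261 and 297 CPM to 4728, 4575, 4323 and 3692 CPM (log2 fold change 4.01 ± 0.11, edgeR adjusted p = 6.61e-23). Thbs1 (thrombospondin-1) rose from 215, 209.8, 186 and 177 CPM to 691, 747, 718 and 821 CPM, a change of 1.92 ± 0.18.

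Whether this course is particular to BMDM-Nur77-KO was tested by the difference between the genotypes in the change from 5 h to 18 h. At an adjusted p under 0.05 in edgeR's quasi-likelihood test, 1522 genes differed (13.5%). The knockout change was above the wild-type change in 841 (7.47%) and below it in 681 (6.05%), and the difference exceeded 1 on the log2 scale in 225 (2.0%) and fell under -1 in 165 (1.47%). Without both libraries that stood apart the counts were 1144 and 900, with 1436 of the 2044 genes shared with the full set. With only the groups compared in the fit they were 532 and 307.

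First-wave genes had a higher share above the wild type. The 387 genes raised in BMDM-WT at 1 h were chosen by a fold between libraries outside this test, but with the shared estimate of spread. Of them, 147 had a knockout change above the wild-type change (38.0%, against 7.47% of all tested genes) and 13 below (3.36%, against 6.05%). Among 24 cytokines 18 had a change above that of BMDM-WT, and among 22 chemokines 9. The knockout change was above in 10 of 20 NF-kB members and in 11 of 26 interferon-stimulated antiviral genes. Mediator enzymes had 8 of 15 above and 1 below, and mitosis genes 5 of 28 above. Such genes were not confined to these lists. DNA replication and G1/S had 11 of 29 above and 1 below, and signal and mRNA-decay brakes 11 of 23 above and 1 below. With 0 below in each, 7 of 11 costimulatory and checkpoint ligands, 6 of 16 MHC class I genes and 7 of 23 glycolysis and HIF genes were above. NRF2 and iron genes had 0 of 17 above and 1 below. In cholesterol synthesis 8 of 23 genes had a knockout change below that of BMDM-WT. The lists of cytokines, mediator enzymes and others were chosen with earlier results known, so these counts are descriptions.

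**Figure D5:**
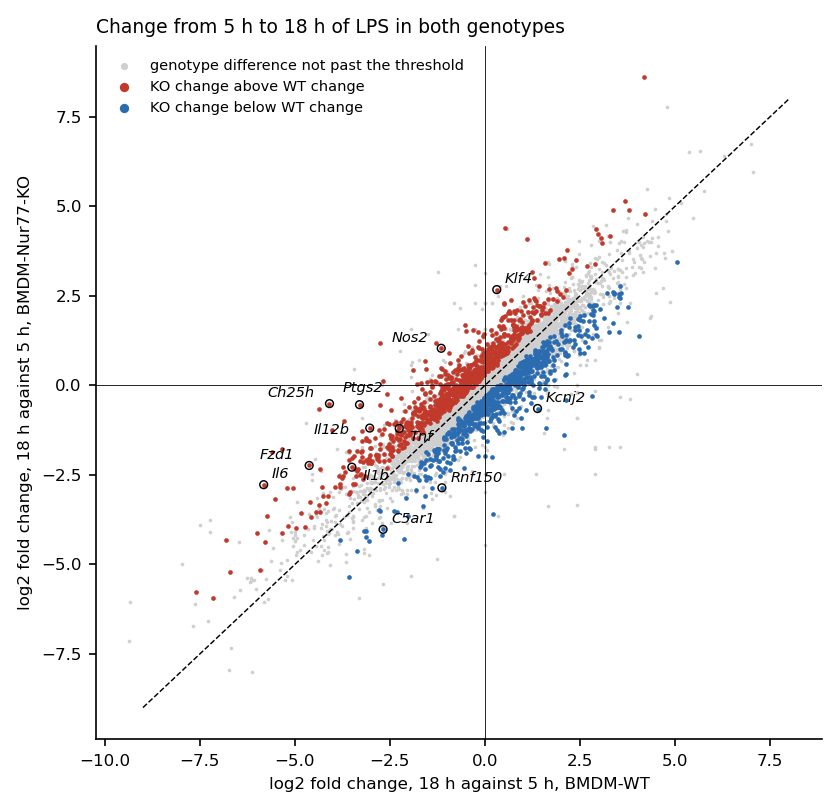
Log2 fold change from 5 h to 18 h in BMDM-WT (x axis) and BMDM-Nur77-KO (y axis) for all 11258 tested genes; red and blue points are genes whose change was above (841) or below (681) the wild-type change at an edgeR adjusted p under 0.05, grey points the rest, and the dashed line marks equal change. Ch25h, Il6, Ptgs2 and Nos2 lie above the line.

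In BMDM-WT Ch25h went from 47.7 ± 5.75 CPM at 5 h to 2.78 ± 0.214 CPM at 18 h (SD, n = 4). The knockout libraries began lower, at 22.2 to 30.5 CPM, and ended higher, at 15.2 to 24.1 CPM. The difference between the changes was 3.58 ± 0.23 (edgeR adjusted p = 2.09e-12) on the log2 scale. Il6 had 234 ± 22.8 CPM at 5 h and 4.11 ± 1.46 CPM at 18 h in BMDM-WT (SD, n = 4), where the change was -5.82. The knockout change was above it by 3.05 ± 0.30 (edgeR adjusted p = 1.13e-07). Ptgs2 fell in BMDM-WT from 985 ± 117 CPM to 99.8 ± 20.9 CPM (SD, n = 4), and the difference was 2.76 ± 0.24 (edgeR adjusted p = 2.22e-09).

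Nos2 moved in opposite directions. In BMDM-WT it was at 1455 ± 74.1 CPM at 5 h and 655 ± 44.2 CPM at 18 h (SD, n = 4), a log2 fold change of -1.15, while it rose in BMDM-Nur77-KO, and the difference was 2.19 ± 0.20 (edgeR adjusted p = 4.48e-09). At 5 h the knockout libraries, at 782 to 979 CPM, were below the wild-type mean, and at 18 h all 4 were above it. Klf4 was at 8.09 ± 1.29 CPM at 5 h and 10.0 ± 1.90 CPM at 18 h in BMDM-WT (SD, n = 4), and its difference was 2.36 ± 0.20 (edgeR adjusted p = 1.28e-09). Fzd1, a Wnt receptor, fell in both, in BMDM-Nur77-KO from 56.5, 71.2, 75.4 and 71.5 CPM to 14.2, 14.9, 17.4 and 11.6 CPM and in BMDM-WT from 54.7 ± 4.05 CPM to 2.21 ± 0.457 CPM (SD, n = 4), with a difference of 2.39 ± 0.20 (edgeR adjusted p = 1.28e-09).

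Other cytokine genes differed in the same direction. For Il12b and Il10 the differences were 1.84 ± 0.15 and 1.78 ± 0.20 (edgeR adjusted p = 3.77e-10 and 1.70e-07). The differences of Il1a, Il1b and Tnf were 1.48 ± 0.18, 1.22 ± 0.19 and 1.05 ± 0.17 (edgeR adjusted p = 3.66e-07, 2.65e-05 and 5.89e-05). Genes of the steepest falls did not all pass this test: Hbegf and Olr1 did, by 1.83 ± 0.28 and 1.22 ± 0.27, while the edgeR adjusted p was 0.347 for Sele, 0.494 for F3 and 0.168 for Gja1. The scavenger receptor gene Mrc1 had a difference of -0.25 ± 0.17 (edgeR adjusted p = 0.408), and Hmox1 of 0.30 ± 0.17 (edgeR adjusted p = 0.273).

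In the opposite direction, Kcnj2, an inward-rectifier potassium channel, went from 23.9, 12.6, 12.1 and 12.0 CPM at 5 h to 8.78, 9.45, 8.69 and 11.5 CPM at 18 h in BMDM-Nur77-KO and from 6.599 ± 0.792 CPM to 17.2 ± 2.20 CPM in BMDM-WT (SD, n = 4). The difference was -2.03 ± 0.26 (edgeR adjusted p = 1.44e-06). Rnf150, a RING-finger protein, fell in BMDM-Nur77-KO from 32.9, 40.1, 36.9 and 27.3 CPM to 4.12, 4.90, 4.77 and 5.07 CPM, and its difference was -1.73 ± 0.16 (edgeR adjusted p = 3.85e-09). Fat3, a large cadherin, and Acsl3, which activates fatty acids, differed by -1.77 ± 0.47 (edgeR adjusted p = 0.00967) and -1.69 ± 0.32 (edgeR adjusted p = 3.78e-04). C5ar1 was at 543 ± 24.7 CPM at 5 h and 84.7 ± 3.89 CPM at 18 h in BMDM-WT (SD, n = 4), a smaller fall than in BMDM-Nur77-KO, with a difference of -1.34 ± 0.10 (edgeR adjusted p = 3.35e-11). Zfp36l1, Galc and Slc40a1 had differences of -1.11 ± 0.22, -1.02 ± 0.10 and -0.76 ± 0.14 (edgeR adjusted p = 5.42e-04, 3.13e-08 and 1.91e-04).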

How the data were processed

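RNA-seq of 32 BMDM libraries was analysed from 1 deposited table of expected counts, without normalization. The authors aligned paired-end reads of strand-specific libraries to mm10 with HISAT2 2.1.0, used SAMtools to drop poorly mapped reads and HOMER to count tags on RefSeq transcripts. The submitters' processing notes also name CASAVA 1.8.2. Each mate adds 0.5 to a count and 28.6% of values were not whole, so counts were rounded. Use of the strand in counting is not given in the sources used here, so overlapping and antisense genes are uncertain. Of 42361 transcripts 93 had no gene name (0.233% to 1.37% of tags) and were left out.

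Isoforms share reads, so 1 transcript per gene was kept, that with the highest mean count. Counts were scaled with TMM and tested by edgeR's quasi-likelihood test in 1 model with a mean per group (R 4.3.3, edgeR 4.0.16), with Benjamini-Hochberg adjustment over 11258 genes. The fit was tested on simulated counts. DESeq2 1.42.0, limma-voom (limma 3.58.1), other filters, limits and normalization, a replicate block and left-out libraries were alternatives. Removal of a trend on GC content in each library was added after seeing the data.

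The members, the 23 gene lists and the 8 marker lists were chosen with earlier results of these data known. Genes named are a fixed panel, the 8 largest falls and rises and the 8 held genes most induced in BMDM-WT, each at a mean of at least 10 CPM, the 4 largest genotype differences each way, and up to 3 each way per list. Some genes that this rule names are not reported here. Detection rests on totals of 12251434 to 15780926 counts in the 8 libraries compared, and a gene at or under 3 counts in every library of a group gets no fold. No 2 libraries of a group agreed within sampling noise.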

Additional observations from a re-analysis of the deposited data

Results flagged for a closer look

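Single libraries lay far from the other 3 of their group in some genes. In 316 groups of 4 libraries, 30 had an end value whose gap to its neighbour, as a share of the group's range, was above Dixon's 95% critical value, where chance gives about 1 in 20. Replicate 4 at 18 h accounted for 19 of them and replicate 1 at 5 h for 7, the libraries that stood apart in the principal components. Replicate 3 at 18 h was the highest of its group with a gap share of 0.936 for Klf4. Replicate 4 at 18 h was the highest of its group with a gap share of 0.871 for Eif2ak2, 0.952 for Isg20, 0.891 for Mrc1, 0.849 for Mylip, 0.874 for Tpx2, 0.919 for Tarm1, 0.901 for Acsl3, 0.874 for Clec9a, 0.898 for Csf2 and 0.991 for Gbp8. Replicate 4 at 18 h was the lowest of its group with a gap share of 0.929 for Tnf, 0.914 for Ccl5, 0.869 for Irf7, 0.911 for Bst2, 0.842 for H2-Q7, 0.842 for Ptges, 0.864 for Hmox1, 0.905 for Tmem86a and 0.885 for Il16. Replicate 2 at 18 h was the lowest of its group with a gap share of 0.884 for Xcr1. Replicate 1 at 5 h was the highest of its group with a gap share of 0.841 for Il6, 0.852 for Isg20, 0.895 for Gclm and 0.949 for Kcnj2. Replicate 1 at 5 h was the lowest of its group with a gap share of 0.87 for Cd83, 0.901 for Lgals9 and 0.847 for Abcg1. Replicate 2 at 5 h was the highest of its group with a gap share of 0.864 for Vegfa. Replicate 3 at 5 h was the highest of its group with a gap share of 0.938 for Trib3.

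In 72 of 158 tested genes named here the change from 5 h to 18 h differed between BMDM-Nur77-KO and BMDM-WT, by edgeR's quasi-likelihood test. Of all tested genes 13.5% differed. Some of the 158 were named for this difference or after values were seen, so the count is no result about them. All values are differences on the log2 scale. No value is given for Il12a, Il33 and Ccr7, which were at or under 3 counts in every library of a group compared. Cytokines and chemokines with a knockout change above the wild-type change had differences of 1.05 (Tnf), 1.48 (Il1a), 1.22 (Il1b), 3.05 (Il6), 1.78 (Il10), 0.58 (Il1rn), 1.84 (Il12b), 1.1 (Il27), 1.14 (Ifnb1), 1.29 (Cxcl2), 1.03 (Cxcl10) and 1.25 (Cxcl11). Regulators and interferon genes with a knockout change above the wild-type change had differences of 0.641 (Nfkbia), 0.866 (Tnfaip3), 2.36 (Klf4), 0.966 (Batf), 0.597 (Nfkbiz), 0.811 (Socs3), 0.318 (Atf3), 2.04 (Dusp8), 0.722 (Pdlim2), 0.915 (Oasl1), 0.567 (Ifit1), 0.627 (Rsad2), 1.44 (Gbp10), 1.14 (Tgtp1) and 0.809 (Irf7). Mediator enzymes with a knockout change above the wild-type change had differences of 2.19 (Nos2), 2.76 (Ptgs2), 1.13 (Ptges), 0.628 (Acod1) and 3.58 (Ch25h). Among receptors, growth factors and the remaining genes with a knockout change above the wild-type change the differences were 1.32 (Cd83), 0.889 (Tlr2), 1.26 (Tlr9), 1.48 (Vegfa), 1.43 (Thbs1), 1.22 (Olr1), 1.83 (Hbegf), 1.47 (Clic5), 1.05 (Adora2a), 0.662 (Lgals9), 0.52 (Ticam1), 0.446 (Mylip), 0.381 (Abcg1), 0.558 (Ctsh), 1.1 (Tfeb), 0.756 (Pfkp), 0.635 (Tpx2), 1.1 (Ccne1), 0.898 (Rrm2), 0.557 (Lhfpl2), 1.65 (Mir147), 0.585 (Itgax), 1.29 (Clec9a) and 2.39 (Fzd1). Changes below the wild type had differences of -1.11 (Zfp36l1), -1.02 (Galc), -0.764 (Slc40a1), -1.34 (C5ar1), -2.03 (Kcnj2), -1.77 (Fat3), -1.73 (Rnf150), -0.462 (Jun), -0.811 (Idi1), -0.709 (Cyp51), -0.623 (Itgam), -0.565 (Alox5ap) and -1.69 (Acsl3). By limma-voom the calls for Fat3, Rrm2, Idi1 and Cyp51 were lost, and without both libraries that stood apart those for Fat3 and Rrm2. DESeq2 ended the call for Rrm2, its size factors those for Il1rn and Mylip, and the replicate block those for Il1rn and Cyp51. With only the groups compared in the fit the calls for Il27, Abcg1, Dusp8, Pdlim2, Socs3, Tfeb, Atf3, Jun, Tpx2, Il1rn, Mylip, Rrm2, Idi1 and Cyp51 were lost. With the GC trend removed those for Ticam1, Jun and Rrm2 were lost. Leaving out 1 knockout library ended the call for Atf3 (replicate 2 at 5 h), Ifit1 (replicate 4 at 5 h or 3 at 18 h), Jun (replicates 1 or 2 at 5 h or 2 at 18 h), Tpx2 (replicates 3 or 4 at 5 h or 4 at 18 h), Il1rn (replicates 2, 3 or 4 at 5 h or 3 or 4 at 18 h), Mylip (replicates 2, 3 or 4 at 5 h or 2 or 4 at 18 h), Rrm2 (replicates 1 or 2 at 5 h or 1 or 2 at 18 h), Idi1 (replicate 1 at 5 h or 1, 2 or 3 at 18 h) and Cyp51 (replicates 1 or 2 at 5 h or 1, 2 or 3 at 18 h). The difference was 0.384 for Il1rn without replicate 4 at 18 h and -0.447 for Cyp51 without replicate 1 at 5 h. The calls for Il1rn, Mylip, Rrm2, Idi1 and Cyp51 were also lost with no filter beyond 1 count.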

How the results depend on the processing

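The counts of genes that fell or rose stayed within 1.5 times their value under the other tests, normalizations and filters on genes, at 1555 to 2086 lower and 1392 to 2067 higher. DESeq2 size factors gave 1703 lower and 1518 higher, and removal of the GC trend 1638 and 1392, with 79.7% of the genes called higher among the latter. With every transcript tested as deposited, 2869 rows were lower and 2840 higher, 1087 induced rows fell, 1389 were held and 341 rose, 1429 lowered rows and 552 late rows rose, and 3050 differed between genotypes. With a log2 limit of 0.58 the counts were 2683 lower, 2749 higher and 990 differing between genotypes, with a limit of 1 on that difference 390, and with no limit 3820 lower and 3930 higher. Held genes numbered 296 with an interval within 0.58. With only the groups compared in the fit, 839 genes differed between genotypes, 832 of them among the 1522. With the GC trend removed 2247 differed, 1416 of them among the 1522. On the log2 scale the median share of the 5 h gain left was 75.5%.

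Leaving out 1 knockout library at a time gave 1508 to 1732 genes lower, 1558 to 1714 higher, 557 to 633 induced genes that fell, 668 to 754 held and 205 to 218 that rose, 765 to 799 lowered genes and 316 to 327 late genes that rose, and 1230 to 1992 differing between genotypes, the last without replicate 4 at 18 h. Nr4a1 against BMDM-WT at 5 h lost its call with limma-voom (-1.70), without both libraries that stood apart (-1.31), with the GC trend removed (-1.37) and without replicates 1, 2 or 3 at 5 h (-1.31 to -1.51), and was -2.23 without replicate 4 at 5 h.

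Deviations of same-numbered libraries correlated at -0.394, -0.104, 0.290 and -0.663. The libraries that stood apart, replicate 1 at 5 h and replicate 4 at 18 h, correlated at 0.733 and weigh on these values. Whether replicate numbers pair the samples therefore cannot be told from them. With the replicate block 1602 genes were lower and 1611 higher, and 1389 differed between genotypes.

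Among 153 single genes, 13 of 2752 alternative values changed sign, in 7 genes of which none had fallen or risen. Leaving out 1 knockout library at a time, the log2 fold change ran from -0.294 to 0.0941 for Il1rn, from -0.929 to 0.231 for Nr4a1, from -0.317 to 0.128 for Nr4a2, from -0.0628 to 0.0247 for Atf3, from -0.0882 to 0.0701 for Mertk and from -0.409 to 0.173 for Acsl3. Nr4a1 was highest without replicate 4 at 5 h and the other 5 without replicate 1 at 5 h. Mertk was also above 0 without replicates 1 and 3 at 18 h (0.0033 and 0.0292). Without both libraries that stood apart Atf3 was at 0.0251, and with the GC trend removed Il1rn was at 0.0399, Mertk at 0.0220, Adora2a at -0.12 and Acsl3 at 0.11. Of 1242 values for genotype differences in 69 genes, 65 lost their call and none changed sign. The causes were not tested.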

Other observations

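Genes of macrophage identity moved in both directions between 5 h and 18 h in BMDM-Nur77-KO. Of 12 tested markers 4 rose and 2 fell, beside 14.3% of all tested genes in each direction. Cebpa, a transcription factor of myeloid cells, was at 2.18, 2.69, 3.84 and 3.34 CPM at 5 h and 30.0, 34.6, 32.0 and 17.5 CPM at 18 h. It was low in every 5 h library, above that range in every 18 h library, and still below its 88.0 ± 5.397 CPM (SD, n = 4) before LPS (log2 fold change 3.23 ± 0.18, edgeR adjusted p = 3.19e-16). Adgre1, the surface marker F4/80, was at 875, 1118, 1412 and 1326 CPM at 5 h and 3269, 3255, 2817 and 2172 CPM at 18 h, with replicate 1 lowest at 5 h and replicate 4 lowest at 18 h (log2 fold change 1.28 ± 0.12, edgeR adjusted p = 7.21e-11). Itgam, the integrin chain CD11b, was at 1115, 1069, 1057 and 998 CPM at 5 h and 523, 515, 454 and 556 CPM at 18 h, a change of -1.05 ± 0.06.

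Some genes that also serve as markers of other immune cells moved with time. Lck, a kinase of T cells, was at 21.8, 32.4, 36.1 and 38.4 CPM at 5 h and 2.33, 2.67, 1.82 and 1.64 CPM at 18 h, while Cd3d was at 0 in all 8 libraries. Clec9a, a receptor of dendritic cells, rose from 5.12, 4.20, 2.59 and 3.54 CPM to 11.0, 10.9, 10.2 and 16.4 CPM and Xcr1, a chemokine receptor of such cells, fell from 21.2, 15.5, 9.69 and 12.8 CPM to 4.93, 2.41, 4.91 and 5.24 CPM. Ccr7, the receptor that guides cells to lymph nodes, had no more than 3 counts in any library at 5 h and 2.29 to 5.53 CPM at 18 h. Ngp, a granule protein of neutrophils, was at 12.4, 15.6, 13.2 and 12.8 CPM at 5 h and 5.20, 5.35, 4.84 and 4.25 CPM at 18 h.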
